A study of Gasterosteus aculeatus with 31 samples.

Results

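Brothers were set against their sisters among juvenile threespine stickleback (Gasterosteus aculeatus) that had been reared by their father. The comparison used 8 father-reared males and 8 father-reared females, 16 of the 31 fish of the study, chosen by the care label Day 10. They were paired as brother and sister by the number that opens each fish identifier, which gave 8 pairs. That number was taken as the family. The labels state that siblings shared a parent but list no families, so the pairing is an inference. The fathers were wild-caught, the juveniles were 6 to 8 months old and not yet mature, and their sex had been read from a DNA marker. A model sculpin, a predator, had been moved past each fish in a pool, and brains were taken 60 minutes after that simulated attack. A single side of the brain, left or right, was homogenised and frozen for ATAC-seq, an assay in which the Tn5 transposase cuts and tags accessible DNA, so that counts gather over open chromatin. Fish that carry the label Day 0 were hand-reared without the father (orphaned). These fish served for a look at the same peaks and for comparisons of the sex difference between care groups. They were 7 orphaned males and 7 orphaned females in 7 pairs, and 1 further orphaned female had no brother. The design text describes the simulated attack for all sampled fish, and no group without it was compared here.

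In threespine stickleback the father alone guards the nest, fans the eggs and herds the fry. Sex is set by an X and a Y chromosome, and linkage group XIX, named groupXIX in the peak table, is the sex chromosome. Females carry a pair of X chromosomes. Males carry an X and a Y that have stopped recombining over much of their length, while the tip that still recombines, the pseudoautosomal region, is shared by both sexes. For this reason groupXIX and the rest of the genome are described apart, and each library was scaled on its counts off groupXIX. A count on groupXIX reflects the number of X copies, the accessibility of each copy and, in males, any Y reads placed there. These cannot be told apart here. The same holds in bulk tissue for fewer cells of a type against less open DNA per cell.

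The table holds counts for 102149 peaks in all libraries, of which 4391 lie on groupXIX and 97758 elsewhere. After the filter on low counts 100110 peaks were tested, 4317 on groupXIX and 95793 off it, and 2039 were removed. Brothers had 2857578 to 5812322 counts in peaks (median 4174310) and sisters 3013093 to 10540612 (median 4491290). The deepest library was the sister of pair 1, and pair 4 had the shallowest brother. The difference in depth did not pass a two-sided exact sign-flip permutation over 8 pairs (p = 0.625). The median peak held 20 to 40 counts in brothers and 21 to 73 in sisters. Left sides were taken from 3 brothers and 5 sisters, and the side was the same within 4 of the 8 pairs. Both sexes were spread over the range of library numbers, and within pairs the brother had the lower number in 7 of 8. The table names no genes, so the tissue could not be checked against brain markers, and peaks are named by sequence and position in the coordinates of the table. No source used here names its genome build.

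The clearest difference was on the sex chromosome as a whole. groupXIX held 3.47% to 3.66% of all peak counts in brothers (median 3.56%) and 4.46% to 4.53% in sisters (median 4.49%). Every brother was below every sister, and the gap between the sexes was wider than the range within either. The means were 3.56% ± 0.0745 in brothers and 4.49% ± 0.0226 in sisters (SD, n = 8 each). The brother was lower in 8 of 8 pairs, by differences of -1.04 to -0.809 percentage points, with a mean difference of -0.930 ± 0.0862 (SD, n = 8 pairs). The two-sided exact sign-flip permutation gave p = 0.0078125, the smallest that 8 pairs allow. Library numbers were split into 3 stretches as candidate batches, since the labels speak of batches of 10 to 11 samples without naming their members. The mean difference was -0.984 in 3 pairs of the first stretch, -0.852 in 2 pairs of the second and -0.927 in 3 pairs of the third. The sex read from the DNA marker and the share of groupXIX therefore sorted all 16 fish alike.

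**Figure D1:**
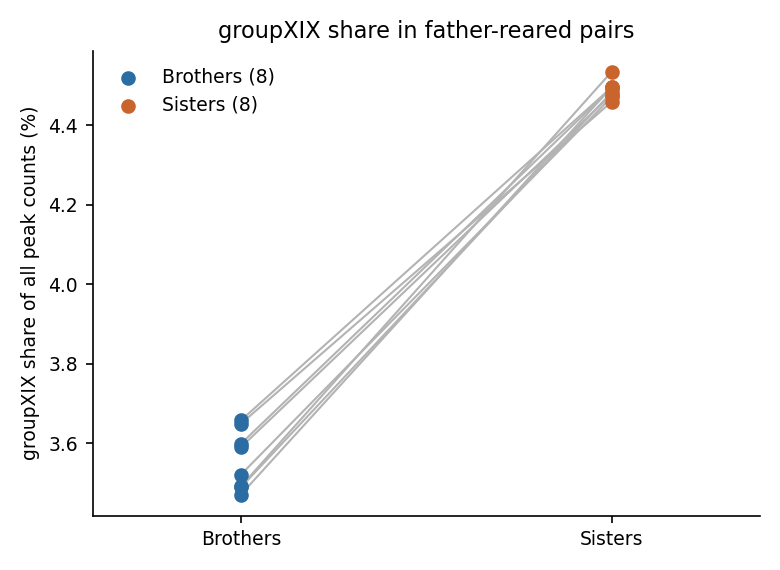
Share of all peak counts that fell on groupXIX (%, y axis, which does not start at 0) in 8 father-reared brothers and their 8 sisters, with a line for each pair. Every line runs upward to the sister, and the brothers lie between 3.47% and 3.66% against 4.46% to 4.53% in the sisters.

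The other linkage groups stayed close to 1. The count on groupXIX relative to all counts off it was 0.785 ± 0.0191 times that of the sister (SD, n = 8 pairs), between 0.762 and 0.812. Over the other 20 linkage groups and the scaffolds, the unplaced sequences summed as a unit, the mean ratio ran from 0.987 to 1.015 and single pairs from 0.952 to 1.068. The farthest from 1 were the scaffolds at 1.015 ± 0.0257 and groupXVII at 0.987 ± 0.0216, and the pairs of each lay on both sides of 1. In two-sided exact sign-flip permutations over 8 pairs, none of these other units fell below a raw p of 0.05. The lowest Benjamini-Hochberg adjusted p among them was 0.516. For groupXIX the raw p was 0.0078, the smallest that 8 pairs allow, and as the 1 unit of 22 at that p it had an adjusted p of 0.172.

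The difference was uneven along groupXIX. Counts were summed over 4 stretches, with limits taken from an earlier description of these data, and divided by the counts off groupXIX. From 4 to 12 Mb the brother's value was 0.546 to 0.583 of the sister's (median 0.555), a mean ratio of 0.561 ± 0.0148 (SD, n = 8 pairs). This SD was the smallest of the 4 stretches, at the lowest mean, and every pair was far below 1. Beyond 12 Mb it was 0.925 ± 0.0201, and again every pair was below 1, between 0.899 and 0.960. Both stretches passed the two-sided exact sign-flip permutation over 8 pairs (adjusted p = 0.0156 over the 4 stretches). Since the limits came from these same data, the tests of the stretches are no independent support for them. From 2 to 4 Mb the ratio was 0.914 ± 0.0652 and 7 of 8 pairs were lower in the brother (exact permutation, adjusted p = 0.0312), with pair 4 at 1.03. That call was lost when TMM factors, which also correct for composition, replaced plain totals (0.923, exact permutation, adjusted p = 0.0938), and when any of pairs 1, 3, 5, 6, 7 or 8 was left out. From 0 to 2 Mb the ratio was 1.03 ± 0.0533, the brother was lower in 2 of 8 pairs, and the test was not passed (exact permutation, adjusted p = 0.125). Pair 4 had the highest value there, 1.15.

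Windows of 1 Mb showed where the level changed. Between 3 and 4 Mb the ratio was 0.875 ± 0.0399 and in the next window, 4 to 5 Mb, it was 0.509 ± 0.0271 (SD, n = 8 pairs each). The window from 5 to 6 Mb was at 0.511 ± 0.0154, while 6 to 7 Mb and 8 to 9 Mb were both at 0.605. The low stretch was thus itself not level in summed counts. Over single peaks the median log2 difference was -1.01 from 4 to 5 Mb and -0.99 from 5 to 6 Mb. It was -0.93 from 6 to 7 Mb and -0.92 from 8 to 9 Mb. The far edge of the low stretch was also abrupt. The ratio was 0.571 ± 0.0155 between 11 and 12 Mb and 0.871 ± 0.0364 between 12 and 13 Mb. Between 13 and 14 Mb the summed counts of brothers and sisters were close, at 0.999 ± 0.0252, with 5 of 8 brothers lower. From there the ratio declined to 0.843 ± 0.0399 between 19 and 20 Mb, where 8 of 8 brothers were lower. The last window held 27 peaks and spread more widely, at 0.854 ± 0.104. These windows are a description and were not tested.

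**Figure D2:**
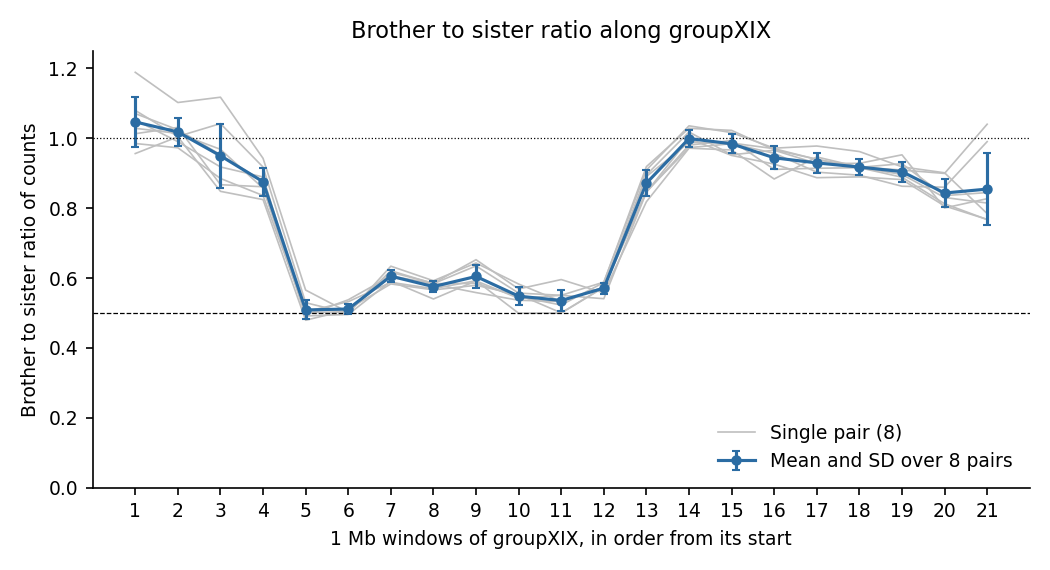
Ratio of brother to sister (y axis) in consecutive 1 Mb windows of groupXIX (x axis, in order from its start), each scaled on counts off groupXIX. Thin lines are the 8 father-reared pairs and points with bars are their mean and SD, with dotted and dashed lines at 1 and 0.5. The mean is 0.875 in window 4, 0.509 in window 5, 0.571 in window 12 and 0.999 in window 14.

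Single peaks were then tested with edgeR's quasi-likelihood test, with family as a block and Benjamini-Hochberg adjusted p below 0.05 as the call. Levels of single peaks are given in CPM, counts per 1000000 counts off groupXIX after TMM scaling. In all 2096 of 100110 peaks were called (2.09%). On groupXIX 1903 of 4317 tested peaks were lower in brothers, which is 44.1%, and 39 were higher, which is 0.903%, or 45% in either direction. Off groupXIX the background was 0.0449% lower and 0.116% higher. The median log2 difference of the lower calls was -0.97 and that of the higher calls 0.54. Of the lower calls 1562 were lower in all 8 pairs, and in 976 every brother was below every sister. Over all tested groupXIX peaks, called or not, 1599 (37%) were lower in all 8 pairs and 980 (22.7%) had every brother below every sister. For the reverse order those numbers were 43 (0.996%) and 2 (0.0463%). The 4 pairs that share a brain side gave 1161 lower calls when fitted alone, a fit with fewer fish. Brain side as a covariate in all 8 pairs gave 1802.

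The 4 to 12 Mb stretch held most of these calls. There 1515 of 1679 tested peaks were lower in brothers (90.2%) and 1 was higher (0.0596%). The median log2 difference of all tested peaks in the stretch was -0.96, with quartiles of -1.08 and -0.83, and 1293 peaks were within 0.25 of -1, the value that corresponds to 1 copy against a pair. A tail reached up to and past 0, with 74 peaks within 0.25 of 0 and 34 with a positive difference, counts that overlap. The 163 peaks with no call were a little stronger than the called ones, with a median of 7.16 against 6.19 CPM, and their median log2 difference was -0.25. When the 1679 peaks were ordered by strength and split into 4 equal groups, the median log2 difference was -1.02, -1.02, -0.94 and -0.89 from the weakest to the strongest. Calls made up 91.9%, 93.8%, 88.3% and 86.9% of these groups. The median SE was 0.20 in the weakest and 0.14 in the strongest group, so stronger peaks were measured more precisely. They also lay slightly closer to 0, an order that this measure of strength favours by itself. In each pair alone, the median difference over the stretch was between -0.89 (pair 3) and -0.81 (pair 4, the pair with the shallowest brother). These single-pair values include a pseudocount of 0.5 CPM, which draws them toward 0, so they are not on the scale of the fitted -0.96.

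**Figure D3:**
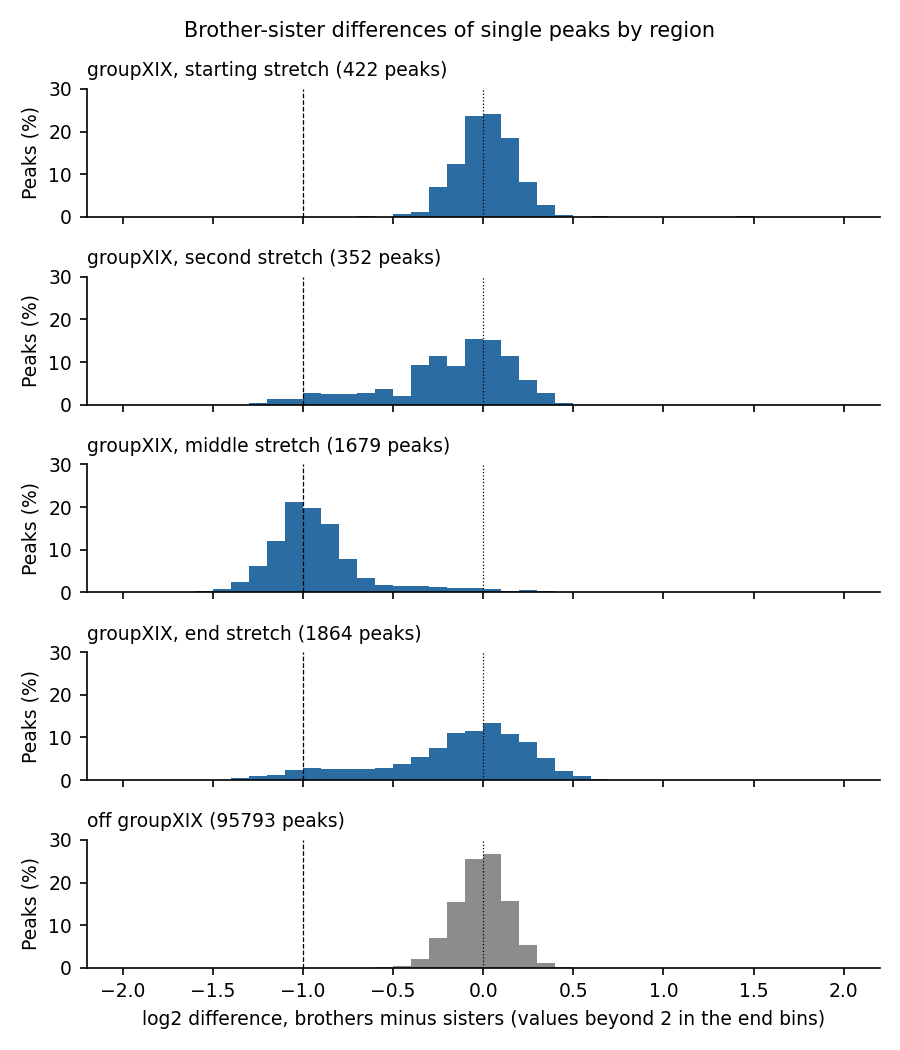
Share of tested peaks (%, y axis) by log2 difference, brothers minus sisters (x axis), in the 4 stretches of groupXIX and off groupXIX, with dotted and dashed lines at 0 and -1. The middle stretch is centred near -1 (median -0.96), the starting stretch near 0 (median 0.02), and the second and end stretches hold a main group near 0 with a tail toward -1.

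Outside that stretch the calls were mixed. From 12 Mb to the end 335 of 1864 tested peaks were lower in brothers (18%) and 36 were higher (1.93%), with a median log2 difference of -0.07. Here 1046 peaks were within 0.25 of 0 and 203 within 0.25 of -1, so peaks near either value occurred in the same stretch. Lower calls were densest near its edges, with 68 of 219 tested peaks between 12 and 13 Mb. Near the other edge they were 51 of 173 between 19 and 20 Mb and 10 of 25 between 20 and 21 Mb. Between 15 and 16 Mb 24 of 231 were lower. Between 13 and 14 Mb, where the summed counts were close, 31 of 276 tested peaks were still lower and 7 were higher. From 2 to 4 Mb 52 of 352 peaks were lower (14.8%). From 0 to 2 Mb 1 of 422 peaks was lower (0.237%) and 2 were higher (0.474%).

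The peaks with the lowest differences on groupXIX lay in the 4 to 12 Mb stretch, below the level of 1 copy against a pair. The peak at 4384958 to 4385358 had 0.969 to 3.75 CPM in brothers (median 2.28) and 5.71 to 9.73 CPM in sisters (median 7.87), a log2 difference of -1.60 with a standard error (SE) of 0.20 (edgeR adjusted p = 1.35e-09). Every brother was below every sister at this peak, as at the 4 that followed it. At 7214143 the difference was -1.55, at 4743876 it was -1.54, at 10913215 it was -1.51 and at 10741318 it was -1.49. These are weak peaks, with 62 to 101 counts summed over the 8 brothers and 206 to 335 over the 8 sisters. They were picked as extremes, and in orphaned fish their log2 differences were between -1.47 and -0.68, each nearer to 0 than in the father-reared fish.

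The strongest called peaks on groupXIX had many more counts and sat near -1. The peak at 10099628 to 10100028 had 29.1 to 58.0 CPM in brothers (median 48.2) and 64.0 to 141 CPM in sisters (median 78.8). From 1534 counts in brothers and 3467 in sisters, the groups did not overlap, and the log2 difference was -0.93 (SE 0.17, edgeR adjusted p = 2.04e-05). The peak at 8051328 had a difference of -0.92, lower in 7 of 8 brothers. The peak at 17895608, which lies far beyond the 4 to 12 Mb stretch, had 21.5 to 46.7 CPM in brothers (median 38.6) and 46.6 to 92.1 CPM in sisters (median 66.9). Its difference of -0.95 (SE 0.16, edgeR adjusted p = 5.88e-06) was close to those of both other peaks, and the groups overlapped at their edges alone.

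A small set of groupXIX peaks was higher in brothers, 36 of 39 of them between 12 Mb and the end. The highest difference was at 420676 to 421076, near the start of the linkage group, with 7.69 to 26.6 CPM in brothers (median 12.0) and 0.959 to 9.78 CPM in sisters (median 4.68). It was higher in 8 of 8 brothers than in the sister, although the groups overlapped, and the log2 values differed by 1.5 (SE 0.17, edgeR adjusted p = 2.26e-11). At 14092512 the groups did not overlap, with 15.0 to 21.5 CPM in brothers (median 19.8) and 6.92 to 14.3 CPM in sisters (median 10.6), a difference of 0.84. The peaks at 18078143, 14595065 and 17657629 had differences of 0.88, 0.71 and 0.70, each higher in 8 of 8 brothers. The call at 14595065 was lost with DESeq2 (adjusted p = 0.0842), in pairs of the same side and without pair 6. Chosen after its values were seen, the 1 call higher in brothers from 4 to 12 Mb was at 7569454 to 7569854. It had 33.2 to 52.3 CPM in brothers (median 41.4) and 18.6 to 36.6 CPM in sisters (median 27.9), a difference of 0.53 (SE 0.15, edgeR adjusted p = 0.0311). That call was lost without the family block (edgeR adjusted p = 0.0516), with brain side as a covariate, in pairs of the same side (0.33, edgeR adjusted p = 1.0) and without any of pairs 1, 2, 3, 4, 7 or 8. The number of higher calls on groupXIX was less settled than that of lower calls. Without the family block it was 23, with DESeq2 12, with brain side as a covariate 23, with pairs of the same side alone 14, and without pairs 4, 5, 7 or 8 it was 23, 22, 24 or 20.

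Off groupXIX most of the genome showed no call, and calls were skewed toward brothers. Of 95793 tested peaks 111 were higher in brothers (0.116%) and 43 were lower (0.0449%). The median log2 difference of all these peaks was -0.0021, with quartiles of -0.10 and 0.09, and 3688 (3.85%) had a raw p below 0.05. By separation of the groups alone, every brother was above every sister at 25 peaks (0.0261%) and below at 5 (0.00522%). Consistent order in all 8 pairs was seen about equally often in either direction, higher in brothers at 324 peaks (0.338%) and lower at 348 (0.363%). For a peak with no sex difference, the probability of such order is 0.0078125 over both directions together. The shares together do not exceed it, so these counts alone show no sex difference. The skew toward brothers was therefore in the called and the fully separated peaks. The p values were adjusted over all peaks, groupXIX included, so the threshold of 0.05 holds for all calls together. It is not assured for the calls off groupXIX alone. Without groupXIX in the filter, scaling and adjustment, 68 peaks were higher and 7 lower, all of them among the 111 and the 43. DESeq2 called 60 higher and 5 lower, again all among those.

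The calls higher in brothers lay on many sequences, were densest on the scaffolds and were often large. Y reads placed at these sites cannot be told apart here from more open chromatin in brothers, and neither was tested. The 111 peaks fell into 96 loci, joined where calls were within 10000 bases of each other, on 17 linkage groups and 26 scaffolds. Scaffolds held 37 of them among 7823 tested peaks. GroupIV held 9 of 7011, groupX 7 of 3624, groupXI 7 of 4473 and groupXVI 6 of 4386, where 0.116% of all peaks off groupXIX were called higher. In either direction 0.575% of scaffold peaks were called, against 0.161% of all peaks off groupXIX. GroupIV at 0.171%, groupXI at 0.179% and groupXVI at 0.160% were near that background. The highest share on a linkage group other than groupXIX was 0.276%, on groupX. Within loci that held several calls the direction was never mixed. The median log2 difference was 0.81, and 33 of the 111 were at least 2-fold higher in brothers. In 61 the brother was higher in all 8 pairs, and in 20 every brother was above every sister.

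The largest difference was on groupX at 741348 to 741748. This peak had 8.72 to 16.4 CPM in brothers (median 12.9) and 0.192 to 2.11 CPM in sisters (median 1.38), with no overlap. Means were 13.0 ± 2.72 CPM in brothers and 1.20 ± 0.687 CPM in sisters (SD, n = 8 each), from 433 and 48 counts, whose log2 values differed by 3.38 (SE 0.20, edgeR adjusted p = 1.73e-28). Every sister had some counts at this site. Another peak on groupX, at 743083 to 743483, followed the same order at 2.96, with 4.84 to 10.3 CPM in brothers and 0.342 to 1.80 CPM in sisters.

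On groupXX at 8813452 to 8813852, brothers had 8.25 to 11.8 CPM (median 10.1) and sisters 0 to 2.3 CPM (median 1.19). All brothers were above all sisters, and the log2 difference was 3.02 (SE 0.22, edgeR adjusted p = 1.83e-21). Weaker peaks with the same separation were on groupIV at 25639941, with 3.06 to 7.00 CPM in brothers and 0.207 to 1.5 CPM in sisters, and on groupVII at 8638901, with 3.63 to 5.52 CPM in brothers and 0 to 1.78 CPM in sisters. Their log2 differences were 2.77 (SE 0.29) and 2.51 (SE 0.31). Another peak of groupVII, at 1890840, lies far from that one and had 3.64 to 6.25 CPM in brothers and 0 to 1.80 CPM in sisters, a difference of 2.25. On groupXI at 778878 brothers had 4.71 to 9.67 CPM and sisters 1.04 to 2.71 CPM, a difference of 2.07. In none of these 5 peaks did any sister reach the lowest brother.

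The peak on groupXVI at 1317033 to 1317433 was the strongest of the 8 highest differences. It had 16.5 to 21.4 CPM in brothers (median 20.2) and 3.31 to 7.09 CPM in sisters (median 5.1), and its difference of 1.95 carried the smallest error of the set (SE 0.14, edgeR adjusted p = 4.97e-22). A neighbouring peak at 1318065 was higher in 8 of 8 brothers by 1.10, with overlapping groups. On scaffold_27 at 758481 to 758881, brothers had 4.79 to 11.2 CPM (median 7.89) and sisters 1.03 to 4.81 CPM (median 1.97), a difference of 1.92 (SE 0.21). It was the 1 peak of these 8 at which a sister, that of pair 4, matched her brother. The neighbour at 757394 was higher in 8 of 8 brothers by 1.24.

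**Figure D4:**
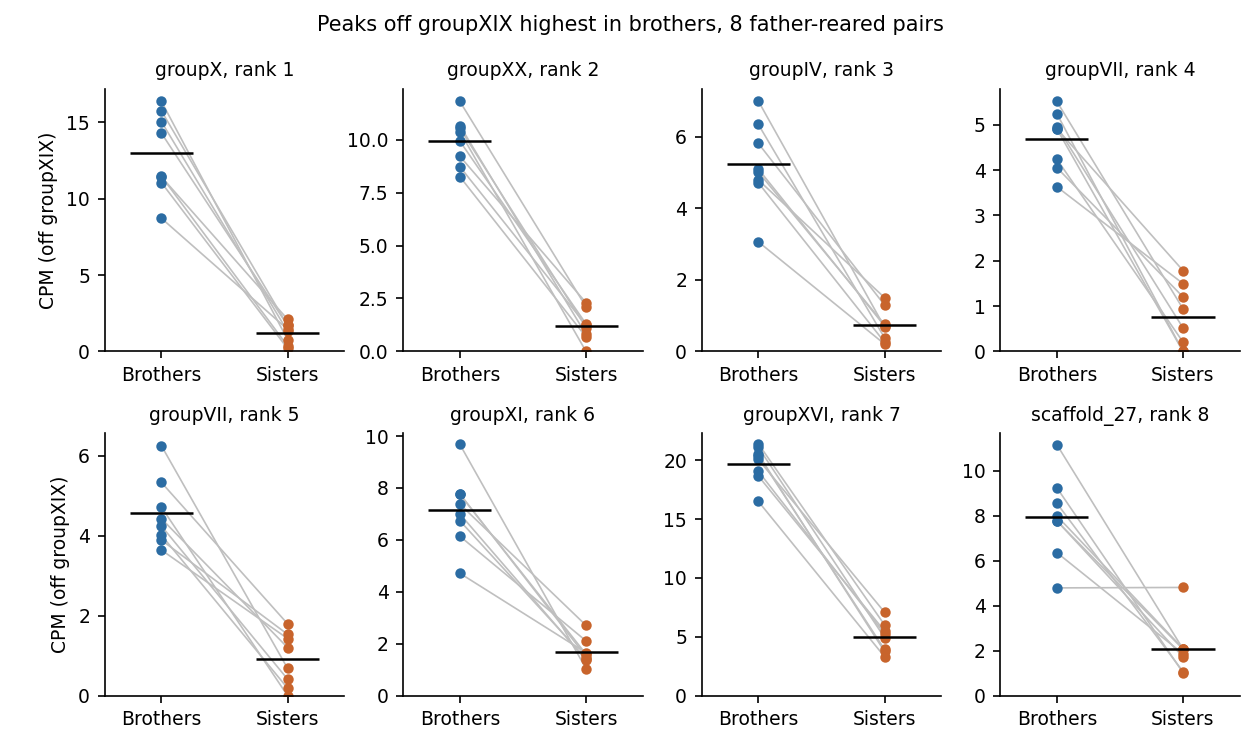
CPM (y axis, a scale of its own in each panel, starting at 0) at the 8 peaks off groupXIX with the highest log2 difference, in father-reared brothers and their sisters, with a line for each of 8 pairs and bars at the means. In 7 panels every brother lies above every sister, and in the scaffold_27 panel the sister of pair 4, at 4.81 CPM, is level with her brother.

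The strongest called peaks off groupXIX were less uniform. On groupVIII at 10059097 to 10059497 brothers had 16.0 to 35.5 CPM (median 22.8) and sisters 9.88 to 21.1 CPM (median 13.3), higher in 7 of 8 brothers, and their log2 values differed by 0.72 (SE 0.14, edgeR adjusted p = 6.17e-05). Both other peaks were on scaffold_224 and varied widely within each sex. At 200449 brothers had 17.0 to 40.2 CPM and sisters 0.342 to 38.9 CPM, and 5 of 8 brothers were higher, a difference of 0.77 (edgeR adjusted p = 0.0242). At 12343 brothers had 2.36 to 43.6 CPM and sisters 3.08 to 43.4 CPM, and 6 of 8 brothers were higher, a difference of 1.05 (edgeR adjusted p = 7.43e-05). Without the family block neither of these scaffold_224 calls held (edgeR adjusted p = 0.928 at 200449 and 0.345 at 12343), nor did they with a random block, with DESeq2 or in pairs of the same side. The call at 200449 was also lost with plain totals, with groupXIX left out, with brain side as a covariate and without pair 2, 6 or 7, where the lowest difference was 0.43. The groupVIII call was lost in pairs of the same side alone (edgeR adjusted p = 0.0566).

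The calls lower in brothers off groupXIX were fewer, smaller and more dependent on single families. Their median log2 difference was -0.59, 5 of 43 were at least 2-fold lower, and in 16 the brother was lower in all 8 pairs. In 1 of them every brother was below every sister. Without the family block 19 peaks were called lower, with family as a random block 22, without pair 1 66 and without pair 6 111, so that 1 family moved the count by more than 1.5 times. The lowest difference was on scaffold_858 at 5856 to 6256, with 1.64 to 4.51 CPM in brothers (median 2.37) and 3.39 to 9.20 CPM in sisters (median 5.75). The brother was lower in 8 of 8 pairs, with a difference of -1.18 (SE 0.22, edgeR adjusted p = 2.32e-05), and the neighbour at 6578 was lower in 8 of 8 pairs at -0.93.

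The other 4 of the lowest 5 had wide overlap. On groupXII at 17834341 to 17835080 brothers had 0.409 to 4.06 CPM and sisters 2.34 to 12.2 CPM, lower in 6 of 8 brothers, a difference of -1.12. It was -0.71 with brain side as a covariate (edgeR adjusted p = 0.380) and -0.44 in pairs of the same side (edgeR adjusted p = 1.0), and the call was also lost with family as a random block (limma adjusted p = 0.157), with DESeq2 and without pair 2 or 7. On scaffold_193 at 51590 the difference was -1.10, yet 2 brothers and 1 sister had no count and another brother had 12.3 CPM. This call depended on family as a fixed block, since it was lost without the block (edgeR adjusted p = 0.952) and with a random one (limma adjusted p = 1.0), and also with DESeq2 and without pair 4. On groupXXI at 3395657 brothers had 0 to 9.43 CPM, with 3 of them at 0, and sisters 3.31 to 14.1 CPM, a difference of -1.09. The call was lost without the family block (edgeR adjusted p = 0.300), with DESeq2, with groupXIX left out, with brain side as a covariate and without pair 1 or 8. Its estimate lay between -2.49 with family as a random block and -0.67 without pair 8. On groupIX at 19611091 brothers had 0 to 4.71 CPM and sisters 1.37 to 9.03 CPM, a difference of -1.02. It was -0.71 without pair 1 (edgeR adjusted p = 0.106) and -0.39 in pairs of the same side (edgeR adjusted p = 1.0), and the call was lost in both and with DESeq2.

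The same peaks were then looked up in the 7 orphaned pairs, fish that had no part in the calls above, with a fit of their own. On groupXIX the picture was shared. Of 1903 lower calls 1901 had the same sign in orphaned fish and 1805 were also called there, which is 94.9% of the father-reared and 95.8% of the 1884 orphaned calls (43.6% of peaks tested). The groupXIX share was 3.50% ± 0.0553 in orphaned brothers and 4.44% ± 0.0363 in orphaned sisters (SD, n = 7 each). The mean pair difference was -0.930 in father-reared fish and -0.944 in orphaned fish, and the gap between them did not pass an exact two-sided permutation over the 15 pairs (p = 0.733, a test chosen after the data were seen). From 4 to 12 Mb the mean ratio was 0.561 in father-reared and 0.560 in orphaned pairs (exact permutation, p = 0.976). Of the 39 calls higher in brothers 36 had the same sign in orphaned fish and 10 were called in both, 25.6% of the father-reared and 55.6% of the 18 orphaned calls (0.417% of peaks tested). Over all groupXIX peaks tested in both, 83.3% had the same sign.

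Off groupXIX the directions parted. Of the 111 calls higher in father-reared brothers 101 (91.0%) were also higher in orphaned brothers. Their median log2 difference was 0.64 there, against 0.81 in the father-reared pairs by which they were picked. In 57 the call was made in both care groups, 51.4% of the father-reared and 56.4% of the 101 orphaned calls (0.105% of peaks tested). All 8 of the highest peaks named above, and their 3 neighbours, were called in orphaned fish. On groupX at 741348 the orphaned brothers averaged 13.6 ± 3.22 CPM and their sisters 0.766 ± 0.603 CPM (SD, n = 7 each), a log2 difference of 4.19. Of the 43 calls lower in father-reared brothers 22 (51.2%) had the same sign in orphaned fish, against 53.0% of all 95754 peaks off groupXIX tested in both. Their median log2 difference in orphaned fish was -0.02, and 2 were called in both, 4.65% of the father-reared and 5.71% of the 35 orphaned calls (0.0366% of peaks tested). Those 2 were the peaks of scaffold_858, an unplaced sequence, and whether it belongs to the sex chromosome was not tested. With groupXIX left out of the father-reared fit, 67 of 68 higher calls and 6 of 7 lower calls had the same sign in orphaned fish.

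**Figure D5:**
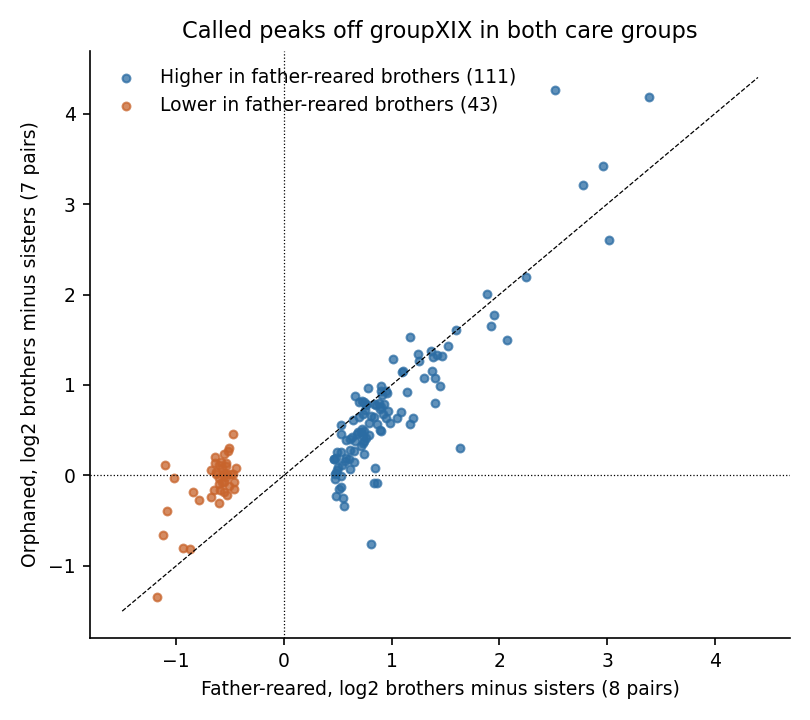
Log2 difference, brothers minus sisters, in 8 father-reared pairs (x axis) and in 7 orphaned pairs (y axis) for the peaks off groupXIX called in the father-reared pairs, 111 higher and 43 lower, with a dashed line of equal values. Most higher calls lie below the dashed line, with medians of 0.81 in father-reared and 0.64 in orphaned pairs, and 101 of 111 lie above 0 in orphaned pairs. The peaks were picked by their father-reared values. The lower calls lie around 0 on the y axis with 22 of 43 below it.

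Whether the sex difference itself depended on paternal care was tested with a sex-by-care term over the 30 fish of 15 pairs. edgeR called 0 of 100778 peaks (0%), with a lowest adjusted p of 0.622 and 3615 peaks at a raw p below 0.05. DESeq2 also called 0, with 1125 at a raw p below 0.05. Peaks called in 1 care group and not in the other are therefore not shown to differ between them. The lowest raw p was at scaffold_56, 749559 to 749959, where father-reared brothers averaged 5.31 ± 3.35 CPM and their sisters 2.99 ± 1.14 CPM (SD, n = 8 each), and orphaned brothers 3.01 ± 1.47 CPM and their sisters 5.4 ± 3.38 CPM (SD, n = 7 each). The sex difference was 1.56 higher on the log2 scale in father-reared fish (SE 0.33, edgeR adjusted p = 0.622), and the scaffold_56 call within father-reared fish was lost under 8 alternatives, DESeq2 and brain side as a covariate among them. On groupVIII at 16147351 it was -0.93 (SE 0.21) and on groupVI at 8894393 -1.12 (SE 0.26), in both cases lower in father-reared than in orphaned fish (edgeR adjusted p = 0.994 for each). The named peaks went either way. The groupVII peak at 8638901 had the larger sex difference in orphaned fish, 2.51 in father-reared and 4.27 in orphaned pairs (edgeR sex-by-care term -1.74, SE 0.68, adjusted p = 1.0). Orphaned sisters averaged 0.206 ± 0.190 CPM there (SD, n = 7), a low level. The groupXIX peak at 7214143 had the larger difference in father-reared fish, -1.55 against -0.68 in orphaned pairs.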

How the data were processed

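ATAC-seq libraries were made from homogenised brain sides and amplified by PCR, per the labels' protocols. Tools listed by the submitters' processing notes, with no role stated for any, are DiffBind 3.14.0, MACS2 2.2.5, Picard 2.10.1, SAMtools 1.9, Bowtie2 2.3.5.1 and FastQC 0.11.8. No source used here gives the genome build, a shift of reads for the transposase offset, or how duplicates were treated. A single table was deposited by the authors, with raw counts for each peak and library and no normalization. Of its 102149 peaks, 101044 span 400 bases. Without molecular identifiers, PCR reads cannot be taken as separate molecules, so the number of counts alone is no measure of precision. The SEs given here also take in the spread between fish that family and sex leave.

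Peaks were filtered with filterByExpr (minimum count 10, grouped by sex) and scaled by TMM on peaks off groupXIX. The test was edgeR's quasi-likelihood F test (version 4.0.16, R 4.3.3) with family and sex, over the 16 father-reared fish, with p adjusted over all peaks by Benjamini-Hochberg and a threshold of 0.05. Log2 differences are male minus female. SEs follow from the F statistic. Orphaned pairs were fitted alone, and the sex-by-care term over 30 fish. Shares and ratios were tested by two-sided exact permutation over pairs. Differences within a single pair used a pseudocount of 0.5 CPM. The fits were tested on simulated data without a family effect or a sex difference on groupXIX, so that test does not bear on either.

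Peaks were named by rule. Among called peaks with a mean of at least 1 CPM, these were the 8 highest and 5 lowest differences off groupXIX, the 5 highest and 5 lowest on it, the 3 strongest of each, and, called or not, the 3 with the lowest raw p for the sex-by-care term. Peaks within 10000 bases of a named one are neighbours. The comparison, the stretches and the rules were chosen with earlier results of these data known. Alternatives were limma 3.58.1, DESeq2 1.42.0, other scalings and filters, brain side, and each pair left out.

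Siblings were paired by family. Deviations from the sex means correlated between siblings at 0.0921 on average over peaks off groupXIX (range -0.181 to 0.330, 5 of 8 pairs above 0.1) and at -0.0131 between other males and females. Over the 5000 most variable peaks they correlated at 0.245, with 7 of 8 pairs above 0.1. The labels do not say whether pairs shared a tank or day. Siblings also had library numbers close together, from 1 and 2 in pair 1 to 33 and 31 in pair 8. Family and closeness in library order therefore cannot be told apart in these correlations. No peak was given a gene or a sequence, since no genome of this build was used here.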

Additional observations from a re-analysis of the deposited data

Results flagged for a closer look

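Among 84 groups of 8 values examined, 6 held a value set apart from the other 7 by more than Dixon's 95% limit, and chance alone flags about 1 group in 20. The ratio of brother to sister from 0 to 2 Mb of groupXIX was 1.15 in pair 4, and the next pair was at 1.05. The sister of pair 4 had 4.81 CPM at scaffold_27 758481, where the next sister had 2.1 CPM. The brother of pair 8 had 12.3 CPM at scaffold_193 51590, and the next brother had 4.09 CPM. The sister of pair 1, the deepest library, had 43.4 CPM at scaffold_224 12343, where the next sister had 12.6 CPM. The sister of pair 5 stood apart at both groupVIII 16147351, with 21.1 CPM against 13.0 CPM in the next sister, and groupVI 8894393, with 14.3 CPM against 8.72 CPM. These last peaks were named for the lowest raw p of the sex-by-care term.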

How the results depend on the processing

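The groupXIX share, the ratios from 4 to 12 Mb and from 12 Mb to the end, and the count of lower calls on groupXIX kept their direction and call under the other scalings, filters and pairs left out. The exception was the count of lower calls in the 4 pairs with the same brain side, 1161 against 1903. Fewer pairs and brain side cannot be told apart in that fit, and brain side as a covariate in all pairs gave 1802. Leaving out 1 pair at a time gave 1806 to 1892 lower and 20 to 43 higher calls on groupXIX, and 30 to 111 lower and 97 to 130 higher calls off it. The 39 higher calls on groupXIX became 23 without the replicate block, 24 with family as a random replicate block, 12 with DESeq2, 23 with brain side as a covariate and 14 in pairs of the same side. The 43 lower calls off groupXIX became 19 without the replicate block, 22 with the random block, 5 with DESeq2, 7 with groupXIX left out and 102 at an adjusted p below 0.10. The 111 higher calls off groupXIX became 60 with DESeq2 and 68 with groupXIX left out, and 86 without the replicate block. Looked up in orphaned fish from the fit with groupXIX left out, 67 higher and 6 lower calls kept their sign, an alternative chosen after the data were seen. From 2 to 4 Mb the ratio was 0.923 with TMM factors and 0.897 to 0.925 with 1 pair left out, and it lost its call in 6 of those 8 fits. The replicate block changed no call for the sex-by-care term. Of 668 values for 36 named peaks, 603 kept direction and call, 65 kept direction alone and 0 reversed. The scaffold_193 peak did not pass the count filter without pair 2 or 8 and has no value there. The cause was not tested for any of these. A pair ratio over 4 pairs or fewer cannot pass its exact test, so those fits say nothing about stability.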
